A study of Arabidopsis thaliana with 16 samples.

Results

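Among the Arabidopsis thaliana genes with a probe of their own on this expression array, 52 were clearly higher in the ppi2 mutant than in its wild type (WT). They were chosen from the same 16 samples in which they are described here. A probe was kept if the mean of the ppi2 samples was at least 1.5 above the mean of the WT samples on the log2 scale and if all 8 ppi2 values lay above all 8 WT values. Of 692 probes that name 1 gene, 64 met both conditions, and 12 of these were then left out, 3 as genes of pentatricopeptide repeat proteins and 9 by name. The remaining 52 probes stand for 52 of the 691 genes measured in this way, and the whole array has 3439 probes. Because the comparison of ppi2 with WT chose these genes, its values are given as a description and without a test.

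The 8 ppi2 samples came from the Arabidopsis ppi2 mutant and the 8 WT samples from the wild type, both of ecotype Wassilevskija, and total RNA was measured. The labels name no tissue, age, growth condition or treatment, and leave unsaid whether samples are separate plants or repeated measurements. Each sample resembled the next one in number most (1 with 2, 3 with 4, and so on), so each such pair was counted as 1 replicate, and SDs and SEs are over 4 pairs per genotype. Of 20 marker genes of root, mesophyll, guard cells, epidermis, vascular tissue, seed, pollen and flower, 0 had a probe of their own, so the tissue could not be checked.

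The ppi2 mutation removes Toc159, a receptor in the outer envelope of the chloroplast that recognises precursor proteins made in the cytosol and passes them to the import channel. Mutant seedlings are albino and their plastids form few internal membranes. Plastids also send signals to the nucleus, and many nuclear genes are known to be expressed differently when plastids are damaged. Most genes in this group are known only by their locus, and the roles named below are those of the protein families their loci are known to encode, given as background. Such a role could be given for 34 of the 52 genes. Roles were not looked up for the other probes, so the count of genes in each role below has no share of the array beside it and describes these 52 genes only.

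Among the probes naming 1 gene, 9.25% met both conditions in the upward direction and 5.35% met the mirrored conditions downward. Over all 3439 probes the shares were 7.79% upward and 7.15% downward. Values are normalized intensities, made equal in distribution between samples, with a floor of 0.034 under which no order can be read. The 52 log2 differences lay between 1.55 and 5.39 with a median of 2.23, against a median of 0 over all 692 probes. By fold, 4 genes were at least 16-fold higher, 11 at least 8-fold, 37 at least 4-fold, and the other 15 under 4-fold. The distance between the lowest ppi2 value and the highest WT value was 1.13-fold at the smallest, 1.74-fold at the median and 12.5-fold at the largest.

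The WT samples were not alike, which touches every value below, the SEs included. Where WT samples 1 to 4 differ from WT samples 5 to 8, the WT pairs are not like replicates. The SE then mixes that step with the spread within each set. In the deposited table the median intensity of a sample was 0.168 to 0.269 in ppi2, 0.198 to 0.212 in WT samples 1 to 4 and 0.0976 to 0.124 in WT samples 5 to 8. After normalization the median level of the 52 genes was 0.831 to 1.06 in the ppi2 samples, 0.193 to 0.275 in WT samples 1 to 4 and 0.115 to 0.141 in WT samples 5 to 8. The median level of the 52 genes was thus highest in ppi2, intermediate in WT samples 1 to 4 and lowest in WT samples 5 to 8, an order that 39 of the 52 followed in their means. In RNA of whole samples, fewer cells that express a gene and less of its RNA per cell cannot be told apart. Whether the step within WT and the difference from ppi2 are related was not tested. Against WT samples 1 to 4 alone, 41 of the 52 genes still met the first condition, and against WT samples 5 to 8 alone 51 did. The second condition could not fail against either set, because the genes were chosen with all ppi2 values above all WT values. Among all 692 probes that name 1 gene, 78 met both conditions against WT samples 1 to 4 alone and 114 against WT samples 5 to 8 alone. That every difference was above 0 against either set follows from the choice of genes.

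**Figure D1:**
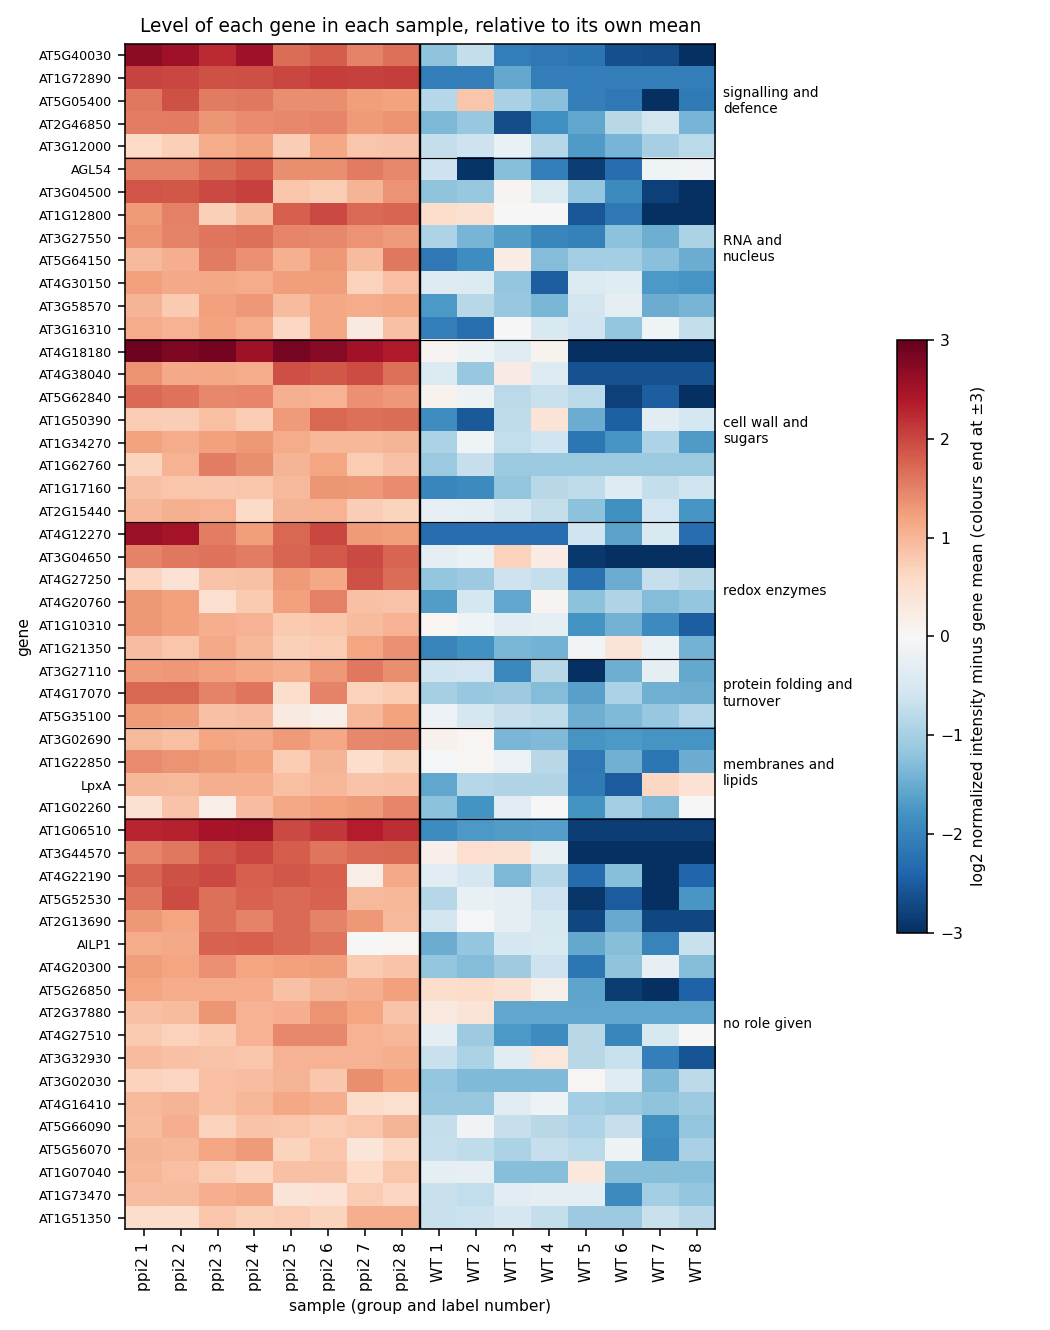
Heat map of the 52 genes (rows, grouped by role and ordered by difference within each group) in the 16 samples (columns, ppi2 on the left and WT on the right). Colour is the log2 normalized intensity minus the mean of that gene over all samples, and colours end at 3 in either direction. The ppi2 columns are even in most rows, while in several rows WT samples 5 to 8 are darker blue than WT samples 1 to 4.

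Genes of signalling and defence made up 5 of the 52, from 3.52-fold to 17.9-fold higher in ppi2. AT5G40030 encodes a protein kinase, an enzyme that adds phosphate to other proteins. Its normalized intensity was 5.44 at the lowest, 8.09 at the median and 12.5 at the highest in the 8 ppi2 samples, against 0.235, 0.435 and 1.18 in the 8 WT samples. The groups lay 4.60-fold apart, no WT sample was at the floor, and the mean was 17.9-fold higher in ppi2 (log2 difference 4.16 ± 0.48 SE, n = 4 pairs each). WT samples 1 and 2 were the highest of the WT, and ppi2 samples 1 to 4 stood above ppi2 samples 5 to 8. Against WT samples 1 to 4 the gene was 12.2-fold higher and against WT samples 5 to 8 it was 26.2-fold higher.

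AT1G72890 belongs to the TIR-NBS family of resistance-type proteins, which are known for sensing pathogens. The 8 ppi2 values were 0.537, 0.580 and 0.603 (lowest, median and highest), against 0.034, 0.034 and 0.049 in WT. In ppi2 this was the steadiest of the 52 genes, with an SD of 0.06 over pairs on the log2 scale. In WT 7 of the 8 samples were at the floor and 5 were listed at 0 in the deposited table, so the 16.2-fold difference (4.02 ± 0.07 SE) moves with the floor. Those 7 values were set equal by the floor, so this small SE does not measure the spread in WT. Raising the floor to the 25th percentile of intensities made it 4.82-fold, and lowering it to the 1st made it 51.2-fold.

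AT5G05400 encodes a resistance-type protein of the NBS-LRR family. Its ppi2 values were 0.839, 1.01 and 1.35 (lowest, median and highest), against 0.036, 0.119 and 0.636 in WT. WT sample 2 held the highest WT value, well above the other 7, and its partner, WT sample 1, was at 0.200. The gene was 7.86-fold higher in ppi2 (2.97 ± 0.60 SE), 4.15-fold against WT samples 1 to 4 and 14.9-fold against WT samples 5 to 8. The protein kinase gene AT2G46850 averaged 1.03 in ppi2 and 0.145 in WT, a 7.12-fold difference (2.83 ± 0.29 SE). AT3G12000, of a family related to the S-locus glycoproteins of self-incompatible relatives, averaged 0.575 in ppi2 and 0.163 in WT (1.82 ± 0.25 SE).

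**Figure D2:**
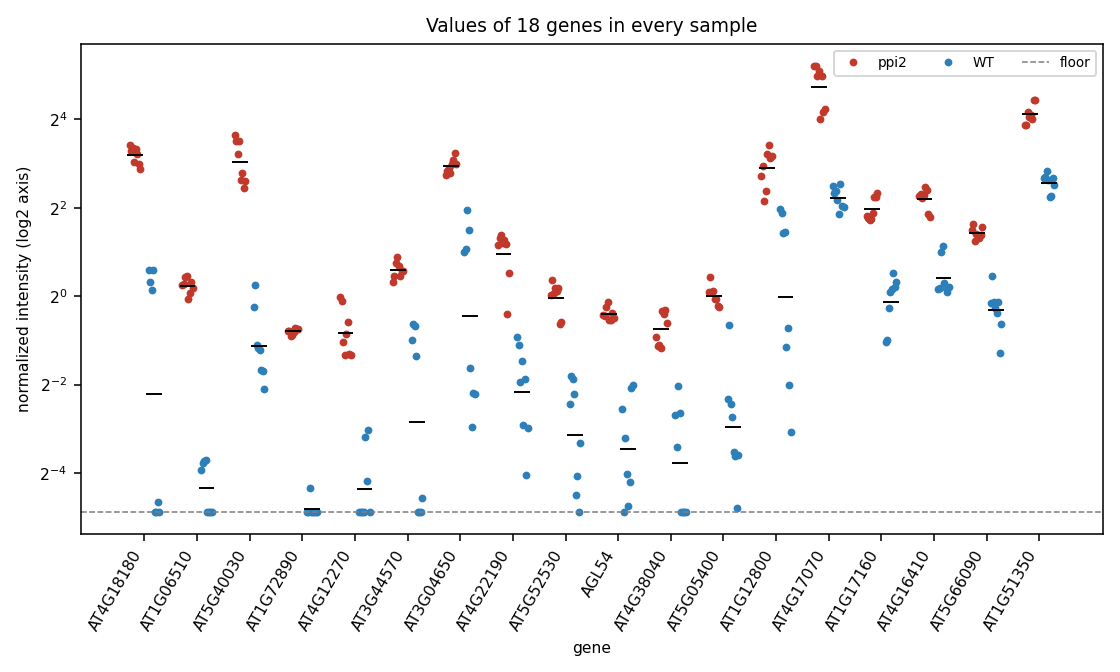
Normalized intensity on a log2 axis in each of the 8 ppi2 samples (red, left of each gene) and 8 WT samples (blue, right) for 18 genes, the 12 with the largest difference and the 6 with the highest ppi2 intensity among the rest. Each point is a sample, the black bar is the mean of the log2 values, and the dashed line is the floor of 0.034. WT values of AT4G18180, AT3G44570, AT3G04650 and AT1G12800 form separate upper and lower sets, and most WT values of AT1G72890 lie on the floor.

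Genes grouped under RNA and nucleus, with the methyltransferase gene AT5G64150 counted among them, made up 8 of the 52, from 3.61-fold to 8.35-fold higher. AGL54 (AT5G27090) encodes a MADS-box protein, a family of DNA-binding transcription factors. Its ppi2 values were 0.686, 0.736 and 0.918 (lowest, median and highest), against 0.034, 0.085 and 0.248 in WT. The WT samples were spread over most of that range without the step between samples 4 and 5. WT samples 7 and 8 were the highest at 0.238 and 0.248, while WT sample 2 was at the floor and its partner at 0.172. AGL54 was 8.35-fold higher in ppi2 (3.06 ± 0.52 SE), 5.08-fold under the higher floor (25th percentile) and 12.9-fold in the values as deposited.

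AT1G12800 encodes a protein with an S1 domain, an RNA-binding fold. The ppi2 values were 4.42, 8.22 and 10.6 (lowest, median and highest), against 0.119, 1.66 and 3.90 in WT. The lowest ppi2 sample was only 1.13-fold above the highest WT sample, the smallest distance among the 52 genes. WT samples 1 to 4 were at 2.71 to 3.90 and WT samples 5 to 8 at 0.119 to 0.608, so the 7.55-fold difference (2.92 ± 1.07 SE) averages over 2.31-fold against the first set and 24.7-fold against the second. It was 11.8-fold without WT samples 1 and 2 and 4.22-fold without WT samples 7 and 8.

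The other genes of this group were mostly steadier in WT. AT3G27550, whose protein has a CRM domain, an RNA-binding fold found in splicing factors of plant organelles, averaged 1.06 in ppi2 and 0.142 in WT. Its 7.49-fold difference (2.90 ± 0.18 SE) was nearly the same against either set of WT samples, at 7.67-fold and 7.31-fold. AT3G04500, with an RNA recognition motif, averaged 0.918 in ppi2 and 0.120 in WT (2.94 ± 0.65 SE), and was 4.41-fold higher against WT samples 1 to 4 and 13.3-fold against WT samples 5 to 8. AT3G58570, a DEAD-box helicase of the kind that unwinds RNA, averaged 0.239 in ppi2 and 0.053 in WT (2.18 ± 0.25 SE). It had 1 WT sample at the floor, and under the higher floor (25th percentile) it was 1.999-fold higher and missed the first condition.

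AT4G30150, related to the Urb2/Npa2 protein that takes part in ribosome assembly in yeast, averaged 0.677 in ppi2 and 0.149 in WT (2.18 ± 0.41 SE). AT5G64150, a methyltransferase, averaged 0.809 in ppi2 and 0.146 in WT (2.47 ± 0.32 SE). AT3G16310, a component of the nuclear pore, averaged 1.17 in ppi2 and 0.325 in WT (1.85 ± 0.46 SE). Differences against WT samples 1 to 4 and against WT samples 5 to 8 were close for AT4G30150, at 4.59-fold and 4.49-fold, and for AT5G64150, at 5.69-fold and 5.42-fold. Of these 8 genes 2 were further above WT samples 5 to 8 than above WT samples 1 to 4, namely AT1G12800 and AT3G04500, while over the 52 genes this was so for 39.

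Genes of the cell wall and of sugar metabolism made up another 8 of the 52, from 3.46-fold to 42.0-fold higher. AT4G18180 had the largest difference of all 52. It encodes a member of the pectin lyase-like family, which holds enzymes that cut the pectin of cell walls. In ppi2 it had 7.30, 9.49 and 10.6 (lowest, median and highest), against 0.034, 0.568 and 1.51 in WT. WT samples 1 to 4 were at 1.1 to 1.51, whereas 3 of WT samples 5 to 8 were at the floor and the fourth was at 0.040, so the WT median lies in the gap between these sets. The mean was 42.0-fold higher in ppi2 (5.39 ± 1.51 SE), 6.85-fold against WT samples 1 to 4 and 257-fold against WT samples 5 to 8, the last of which moves with the floor. Leaving out 1 WT pair at a time gave 22.6-fold (without WT samples 5 and 6), 23.2-fold (without 7 and 8), 76.0-fold (without 3 and 4) and 77.6-fold (without 1 and 2). The size was 22.8-fold under the higher floor (25th percentile), 70.1-fold under the lower one (1st percentile), 23.7-fold after cyclic loess and 21.6-fold with zeros set to missing.

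AT4G38040 and AT1G34270 belong to the exostosin family of glycosyltransferases, which attach sugars to polysaccharides. AT4G38040 had ppi2 values of 0.447, 0.593 and 0.801 (lowest, median and highest), against 0.034, 0.064 and 0.246 in WT. It was listed at 0 in WT samples 5 to 8, which were all at the floor, so the 17.5-fold difference from those samples moves with the floor. The gene was 3.84-fold higher than in WT samples 1 to 4 (3.04 ± 0.68 SE over all). Over all samples it was 8.20-fold higher, and between 3.79-fold (zeros set to missing) and 18.1-fold (floor at the 1st percentile) in other settings. Its ppi2 samples 5 to 8, at 0.654 to 0.801, stood above its ppi2 samples 1 to 4, at 0.447 to 0.531. AT1G34270 averaged 1.03 in ppi2 and 0.217 in WT, a 4.73-fold difference (2.24 ± 0.34 SE).

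AT1G62760, of the family of pectin methylesterase inhibitors, was listed at 0 in 7 of 8 WT samples and averaged 0.153 in ppi2 and 0.035 in WT (2.11 ± 0.15 SE). AT2G15440, of the DUF579 family known from the synthesis of wall polysaccharides, averaged 1.01 in ppi2 and 0.292 in WT (1.79 ± 0.30 SE). The ppi2 values of AT1G62760 were no higher than 0.211, so its difference moves with the floor. Its WT values were mostly set equal by the floor, so its SE does not measure the spread in WT. Under the higher floor (25th percentile) its log2 difference was 0.36.

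AT1G17160 and AT1G50390 encode pfkB-like carbohydrate kinases, which phosphorylate sugars, and AT1G17160 is known as a ribokinase. AT1G17160 had ppi2 values of 3.31, 3.60 and 5.07 (lowest, median and highest), against 0.487, 1.1 and 1.44 in WT, and was 4.27-fold higher (2.09 ± 0.34 SE). After normalization the order within WT was turned round here, with samples 1 and 2 the lowest at 0.487 and 0.502 and samples 5 to 8 at 1.12 to 1.44. The difference was accordingly 5.73-fold against WT samples 1 to 4 and 3.18-fold against WT samples 5 to 8, and it was 7.03-fold in the values as deposited. The turned order was absent from the deposited values. There WT samples 3 and 4 were the highest of the WT at 0.934 and 1.29, and WT samples 5 to 8 were at 0.425 to 0.735.

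AT1G50390 averaged 1.06 in ppi2 and 0.205 in WT, a 5.19-fold difference (2.38 ± 0.57 SE) that was nearly equal against both sets of WT samples. AT5G62840, of the phosphoglycerate mutase family, averaged 2.03 in ppi2 and 0.30 in WT (2.76 ± 0.65 SE). AT5G62840 was 3.39-fold above WT samples 1 to 4 and 13.5-fold above WT samples 5 to 8.

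Genes of redox enzymes made up 6 of the 52, from 3.95-fold to 11.5-fold higher. AT4G12270 belongs to the copper amine oxidases, which oxidise polyamines and release hydrogen peroxide. In ppi2 it had 0.398, 0.518 and 0.981 (lowest, median and highest), against 0.034, 0.034 and 0.122 in WT. Unlike most of the group, its floor values were those of WT samples 1 to 4, all at the floor, together with WT sample 8. It was 16.6-fold higher than in WT samples 1 to 4, a size that moves with the floor, and 7.99-fold higher than in WT samples 5 to 8. Over all samples it was 11.5-fold higher (3.53 ± 0.42 SE). The value over all samples was 4.72-fold under the higher floor (25th percentile) and 21.9-fold under the lower one (1st percentile).

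AT3G04650 encodes an oxidoreductase that binds FAD or NAD(P). Its ppi2 values were 6.72, 7.72 and 9.47 (lowest, median and highest), against 0.128, 1.15 and 3.84 in WT. The ppi2 samples were close together, with an SD of 0.16 on the log2 scale, while WT had an SD of 2.11. WT samples 1 to 4 were at 1.98 to 3.84 and WT samples 5 to 8 at 0.128 to 0.322, none of them at the floor. The 10.5-fold difference (3.39 ± 1.06 SE) therefore stood for 2.98-fold against the first set and 36.8-fold against the second. It was 17.2-fold without WT samples 3 and 4, 6.82-fold without WT samples 5 and 6 and 6.97-fold without WT samples 7 and 8.

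AT4G27250, AT4G20760 and AT1G10310 encode proteins with a Rossmann fold, which binds NAD(P). AT4G27250 averaged 1.32 in ppi2 and 0.284 in WT (2.21 ± 0.38 SE). AT4G20760 averaged 0.331 in ppi2 and 0.079 in WT (2.07 ± 0.20 SE). AT1G10310 averaged 1.54 in ppi2 and 0.369 in WT (2.06 ± 0.53 SE). AT1G10310 showed the step within WT, with 2.29-fold against WT samples 1 to 4 and 7.63-fold against WT samples 5 to 8. AT1G21350, of the thioredoxin superfamily of disulphide-handling proteins, averaged 0.320 in ppi2 and 0.081 in WT (1.98 ± 0.46 SE). It showed the step in the other direction, with 6.25-fold against WT samples 1 to 4 and 2.49-fold against WT samples 5 to 8, and it was the gene that missed the first condition against WT samples 5 to 8 alone.

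Genes of protein folding and turnover made up 3 of the 52. AT4G17070 encodes a peptidyl-prolyl isomerase, a folding helper that turns the bond before proline. Its ppi2 values were 16.02, 31.4 and 36.8 (lowest, median and highest), against 3.64, 4.78 and 5.80 in WT. WT was tight here, with an SD of 0.16 on the log2 scale, and the spread lay in ppi2 (SD 0.46), where samples 5, 7 and 8 were at 16.02 to 18.9 and the other 5 at 31.4 to 36.8. The gene was 5.67-fold higher in ppi2 (2.502 ± 0.25 SE), 5.22-fold and 6.15-fold against WT samples 1 to 4 and 5 to 8. AT3G27110, a metallopeptidase of plastoglobules, the lipid droplets of plastids, averaged 0.724 in ppi2 and 0.120 in WT (2.59 ± 0.38 SE). AT5G35100, a cyclophilin, averaged 0.474 in ppi2 and 0.142 in WT (1.74 ± 0.32 SE).

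Genes of membranes and lipids made up 4 of the 52, all between 3.72-fold and 5.2-fold higher. AT3G02690, of the EamA-like family of transporters, averaged 0.263 in ppi2 and 0.051 in WT (2.38 ± 0.45 SE). AT1G02260, a divalent ion symporter, averaged 0.836 in ppi2 and 0.225 in WT (1.90 ± 0.38 SE). LpxA (AT4G29540), related to the bacterial enzyme that begins lipid A synthesis, averaged 0.638 in ppi2 and 0.165 in WT (1.95 ± 0.59 SE). Its ppi2 samples were close together (SD 0.09) and its WT samples were not (SD 1.17). AT1G22850, of the SNARE-associated Golgi protein family, averaged 0.398 in ppi2 and 0.096 in WT (2.05 ± 0.50 SE). AT1G22850 was 2.41-fold above WT samples 1 to 4 and 7.14-fold above WT samples 5 to 8, and it missed the first condition against WT samples 1 to 4 alone and under the higher floor. AT3G02690 had 3 of WT samples 5 to 8 at the floor, and under the higher floor (25th percentile) its log2 difference was 1.13.

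The other 18 genes are given without a role. AT1G06510 was the most clearly separated of all 52, with ppi2 values of 0.963, 1.2 and 1.37 (lowest, median and highest), against 0.034, 0.050 and 0.077 in WT. The lowest ppi2 sample was 12.5-fold above the highest WT sample. WT samples 5 to 8 were all at the floor, so the 34.7-fold difference from those samples moves with the floor. The gene was 16.2-fold higher than in WT samples 1 to 4 (23.7-fold over all, 4.57 ± 0.33 SE). The overall value was 9.88-fold under the higher floor, 46.6-fold under the lower one and 13.9-fold after cyclic loess.

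AT3G44570 had ppi2 values of 1.25, 1.49 and 1.84 (lowest, median and highest), against 0.034, 0.216 and 0.651 in WT. It showed the same step as AT4G18180, with WT samples 1 to 4 at 0.390 to 0.651 and 3 of WT samples 5 to 8 at the floor. The 10.9-fold difference (3.44 ± 1.13 SE) was 2.83-fold against WT samples 1 to 4 and 41.8-fold against WT samples 5 to 8, and with 1 WT pair left out it was 17.5-fold (without samples 1 and 2), 16.6-fold (without 3 and 4), 6.81-fold (without 5 and 6) and 7.06-fold (without 7 and 8). It was 5.81-fold after cyclic loess, 5.96-fold under the higher floor, 17.5-fold under the lower one and 6.57-fold with zeros set to missing. Against WT samples 1 to 4 alone its log2 difference was 1.499, just short of the first condition.

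AT4G22190 had ppi2 values of 0.760, 2.29 and 2.60 (lowest, median and highest), against 0.061, 0.266 and 0.527 in WT (8.64-fold, 3.11 ± 0.61 SE). AT5G52530 had 0.651, 1.06 and 1.29 in ppi2, against 0.034, 0.142 and 0.285 in WT (8.62-fold, 3.11 ± 0.64 SE). In both genes ppi2 samples 7 and 8 were the lowest ppi2 samples and WT samples 5 to 8 were mostly lower than WT samples 1 to 4. Against WT samples 1 to 4 and 5 to 8, AT4G22190 was 4.97-fold and 15.04-fold higher and AT5G52530 was 4.15-fold and 17.9-fold higher. After cyclic loess AT4G22190 was 5.64-fold and AT5G52530 5.71-fold higher, and in the values as deposited AT4G22190 was 13.5-fold higher.

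AT5G26850 averaged 0.889 in ppi2 and 0.195 in WT (2.19 ± 0.90 SE), but only 1.58-fold above WT samples 1 to 4, against 13.1-fold above WT samples 5 to 8. It was the weakest of the 52 against WT samples 1 to 4, with a log2 difference of 0.66, and was 2.92-fold higher without WT samples 7 and 8. AT2G13690 averaged 0.588 in ppi2 and 0.086 in WT (2.77 ± 0.62 SE) and had the same kind of step, at 3.32-fold and 14.01-fold. AT3G32930 averaged 1.28 in ppi2 and 0.336 in WT (1.93 ± 0.49 SE).

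AILP1 (AT5G19140), named as an aluminium-induced protein, averaged 0.884 in ppi2 and 0.182 in WT (2.28 ± 0.45 SE). It had the largest spread within ppi2 of the 52 genes, with an SD of 0.80. AT4G20300 averaged 1.57 in ppi2 and 0.326 in WT (2.27 ± 0.24 SE), AT4G27510 averaged 0.271 in ppi2 and 0.065 in WT (2.06 ± 0.38 SE), and AT5G56070 averaged 0.996 in ppi2 and 0.30 in WT (1.73 ± 0.26 SE). For these genes the folds against WT samples 1 to 4 and WT samples 5 to 8 were within 1.5 times of each other. Under the higher floor the log2 difference of AT4G27510 was 1.16, short of the first condition.

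Of the 6 genes taken for their high ppi2 intensity, 3 are among those without a role. AT4G16410 had ppi2 values of 3.45, 4.88 and 5.55 (lowest, median and highest), against 1.07, 1.15 and 2.21 in WT (3.47-fold, 1.80 ± 0.26 SE). AT5G66090 had 2.38, 2.64 and 3.12 in ppi2, against 0.412, 0.866 and 1.37 in WT (3.36-fold, 1.75 ± 0.24 SE). AT1G51350 had 14.7, 16.9 and 21.5 in ppi2, against 4.76, 6.27 and 7.16 in WT (2.93-fold, 1.55 ± 0.16 SE). None of these 3 genes had a WT sample near the floor. AT4G16410 was 5.74-fold and AT5G66090 6.003-fold higher in the values as deposited.

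AT2G37880, AT3G02030 and AT1G07040 had many WT values at the floor. AT2G37880 averaged 0.211 in ppi2 and 0.047 in WT (2.16 ± 0.48 SE), AT3G02030 averaged 0.165 in ppi2 and 0.044 in WT (1.90 ± 0.30 SE), and AT1G07040 averaged 0.144 in ppi2 and 0.046 in WT (1.63 ± 0.27 SE). Between 4 and 6 of their 8 WT samples were at the floor, so their SEs rest in part on values set equal. Under the higher floor (25th percentile) the log2 differences were 0.80 for AT2G37880, 0.47 for AT3G02030 and 0.27 for AT1G07040.

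The last of the 18 was AT1G73470, which averaged 0.890 in ppi2 and 0.294 in WT (1.596 ± 0.24 SE). With AT1G51350 and AT1G07040 it lay just inside the first condition. Just outside it, with groups that did not overlap, were AT2G28660 at 1.48, AT2G37750 at 1.47 and MAMI (AT5G54110) at 1.46. In all, 23 further genes were separated upward but by less than 1.5, and 30 were at least 1.5 higher but overlapped between the groups. The largest differences among the 30 were those of AT5G06010 (3.30), AT3G50350 (2.99) and AT4G21770 (2.70), each with 6 of 8 ppi2 samples above every WT sample.

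The 52 genes were even in ppi2 and uneven in WT, as were the other probes. Their median SD over pairs was 0.23 in ppi2 and 0.68 in WT, against 0.29 in ppi2 and 0.65 in WT over all 692 probes. The SD was larger in WT than in ppi2 for 46 of the 52 genes (88.5%) and for 81.1% of the 692 probes. Among the 52, an SD above 1 was found in 0 genes in ppi2 and in 16 in WT, counts that have no share of the 692 probes beside them. Since separation of the groups was part of the choice, no more is read from these spreads.

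The step within WT ran mostly one way in these genes. The step was counted on the normalized values only, and its order can differ in the deposited values, as for AT1G17160. WT samples 1 to 4 averaged above WT samples 5 to 8 in 39 of the 52 genes (75.0%) and below them in 13. Of the 692 probes, 280 (40.5%) were above, 357 below and 55 equal. All of WT samples 1 to 4 lay above all of WT samples 5 to 8 in 16 of the 52 (30.8%) and in 15.5% of the 692 probes, and below them in 1 of the 52 (1.92%) and in 12.1% of the 692. The median log2 difference between the WT sets was 0.52 for the 52 genes and -0.04 for all 692. In 19 genes the fold was more than 2 times as large against WT samples 5 to 8 as against WT samples 1 to 4, in 2 (AT1G21350 and AT4G12270) it was the reverse, and in 31 it differed less. At least 1.5 on the log2 scale against both sets was reached by 40 of the 52. The counts by size of the step and against both sets have no share of the 692 probes beside them and describe the 52 genes only. The WT values took part in choosing the genes, so these shares are a description and no test was made.

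**Figure D3:**
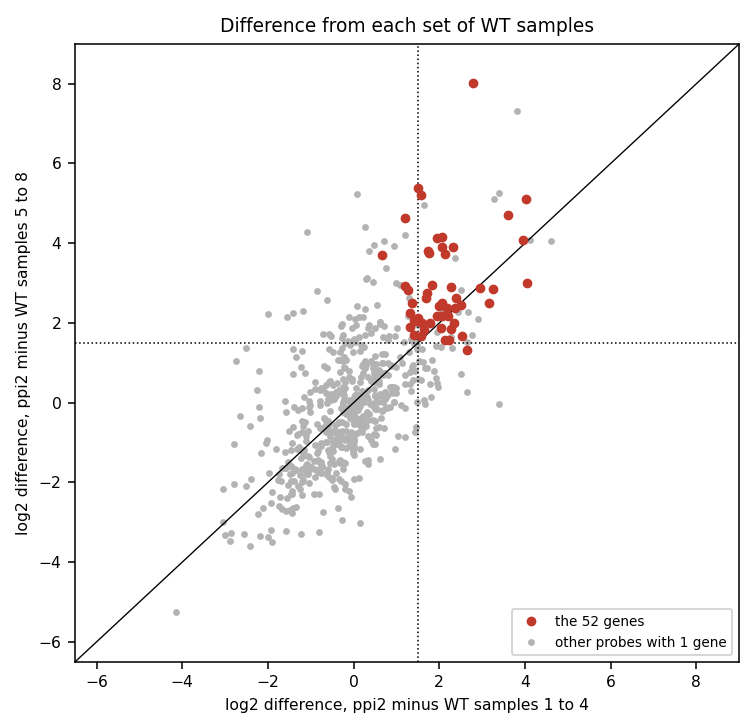
Log2 difference of ppi2 from WT samples 1 to 4 (horizontal axis) and from WT samples 5 to 8 (vertical axis) for the 52 genes (red) and the other probes with 1 gene (grey). The solid line marks equal differences and the dotted lines a difference of 1.5. Of the 52 genes 39 lie above the solid line, AT4G18180 farthest from it with 257-fold on the vertical axis and 6.85-fold on the horizontal one.

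A ppi2 value of 0 could not lie above all WT values, so zeros could occur only in WT. None of the 416 ppi2 values of the 52 genes was 0 in the deposited table, while 40 of the 416 WT values (9.62%) were, in 14 genes. Over the 692 probes 15.6% of ppi2 values and 15.1% of WT values were 0. The 40 zeros were 10 in WT samples 1 to 4 and 30 in WT samples 5 to 8, which is 4.81% and 14.4% of the values there. Over the 692 probes the shares were 15.03% in WT samples 1 to 4 and 15.25% in WT samples 5 to 8. After normalization 34 genes had no WT sample at the floor, 18 had 1 to 7, and 0 had all 8, so no gene was at the floor throughout WT. Of the 18, 8 had at least 4 WT samples there.

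By locus name the genes lay on all 5 chromosomes, with 14 of 174 named probes on chromosome 1 (8.05%), 4 of 124 on chromosome 2 (3.23%), 11 of 130 on chromosome 3 (8.46%), 12 of 120 on chromosome 4 (10%) and 11 of 143 on chromosome 5 (7.69%). In the RefSeq gene order 18 of the 52 had another measured gene within 10 genes, and 0 of them had another of the 52 there. The 25 measured neighbours differed by -1.92 to 1.78 on the log2 scale with a median of 0, and 11 of them were above 0. Among them AT5G66050 (1.78) and AT1G73430 (1.73) met the first condition, but their groups overlapped. Of the 25, 2 were at the floor in all 16 samples and so gave no measured difference, AT5G19150, which lies next to AILP1, and AT3G27180. The median of the other 23 was -0.11. AT3G32940, next to AT3G32930, was at -0.14. No 2 of the 52 genes were thus within 10 genes of each other. As the group holds 52 of 691 measured genes, this says little with 25 neighbours.

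Of the 52 genes 7 are also listed on a probe that names 2 to 4 genes, whose signal belongs to no one of them. On these probes the log2 difference was 1.84 for the one listing AT1G12800, 0.82 for AGL54, 0.65 for AT1G22850, -0.21 for AT2G13690, -0.48 for AT5G56070 and -1.81 for AT3G58570. The probe listing AILP1 was at the floor in all 16 samples, and that of AT2G13690 in 14. Whether these probes measure the same transcripts was not tested.

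The number of genes chosen and the size of their differences moved with the scaling. The 2 conditions were met by 64 named probes upward and 37 downward after quantile normalization, so that 63.4% were upward, but by 116 and 18 in the values as deposited, with 86.6% upward. All probes together were 0.29 higher in ppi2 at the median in the deposited values. In the 18 other settings the median of the 52 genes was between 2.05 and 2.85, and 28 of the 52 met both conditions in every one. Where a setting leaves out samples or moves the floor, the direction is fixed by the choice of genes. Where it leaves out samples, the second condition cannot fail either, so only the first is examined again. Where samples were rescaled, the lowest of the 52 log2 differences was 1.72 as deposited, 1.03 after centring and 1.12 after cyclic loess. These settings use the same values that chose the genes, so they give no independent support for the direction. The 28 include AT1G06510, AT5G40030, AT1G72890, AT4G12270, AT3G27550, AT4G17070 and AT4G18180. Against WT samples 1 to 4 alone, the 11 that missed a condition were AT3G44570, AT1G12800, AT5G26850, AT1G10310, AT1G22850, AT3G32930, AT2G15440, AT5G66090, AT5G35100, AT1G73470 and AT1G51350. After cyclic loess, 9 did so: AT1G12800, AT3G32930, AT1G02260, AT3G16310, AT3G12000, AT2G15440, AT5G35100, AT5G56070 and AT1G73470. Under the higher floor, 10 did so: AT3G02690, AT3G58570, AT2G37880, AT1G62760, AT4G20760, AT4G27510, AT1G22850, AT1G21350, AT3G02030 and AT1G07040.

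**Figure D4:**
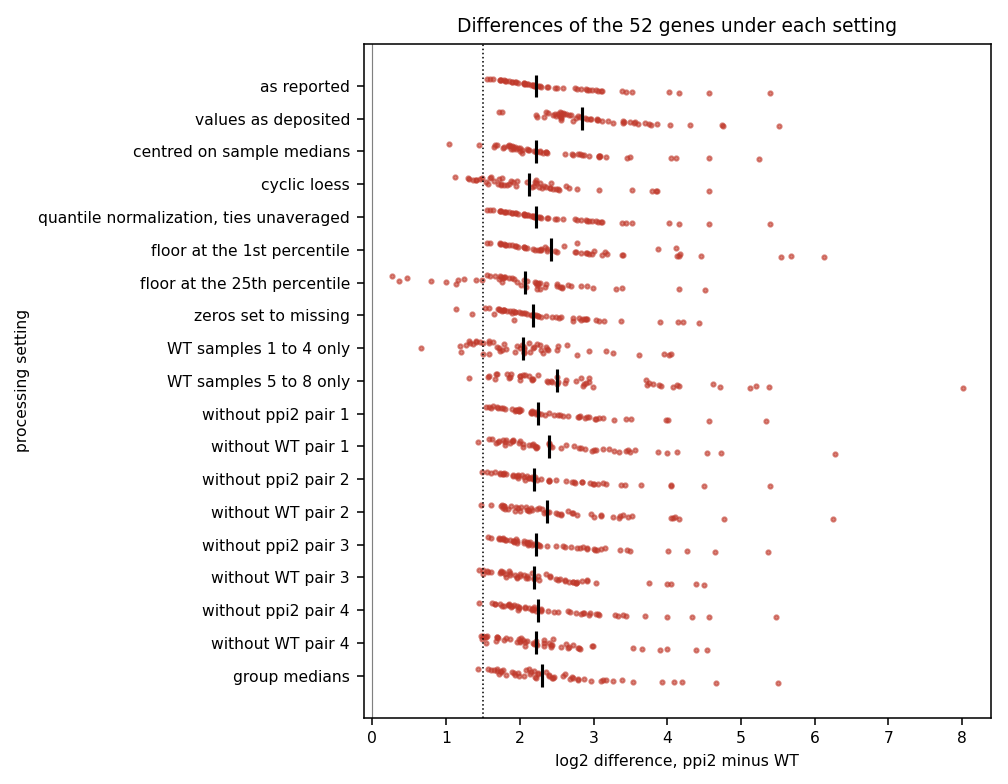
Log2 difference between ppi2 and WT of each of the 52 genes (points) under the setting as reported (top) and 18 others, with the median as a black bar. The dotted line marks 1.5 and the grey line 0. The median is highest for the values as deposited (2.85) and lowest against WT samples 1 to 4 alone (2.05), and the points farthest below 1.5 belong to the floor at the 25th percentile.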

How the data were processed

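RNA of 8 ppi2 and 8 WT samples was measured on an expression array. The authors' deposited table gives 1 intensity per probe and sample on a linear scale from 0 to 100, with the method of quantification and scaling not given in the sources used here. All 16 columns were matched to samples by accession. Intensities were quantile-normalized with limma 3.58.1 in R 4.3.3, values under 0.034 were set to 0.034, and log2 was taken. Differences are ppi2 minus WT. Consecutively numbered samples were averaged because all 8 in each genotype correlated best with their partner over probes (0.959 to 0.979 within ppi2 pairs and 0.902 to 0.938 within WT pairs, against at most 0.953 and 0.870 otherwise).

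Gene names came from an older platform annotation, which gave 1 gene for 692 probes and several for 870. The RefSeq table of the assembly TAIR10.1 held 691 of the 692, and all 52 genes described. Its entries hold names only, so a search by words for 12 functional groups found 0 of the 52 genes, and roles were assigned by locus after the genes were known. Probes with several genes gave no names. Sequences were not used here.

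The genes, marker list, word groups and comparisons were chosen with earlier results of these data known. No test of ppi2 against WT was run, because that contrast chose the genes. All genes are named. The 12 with the largest difference and the 6 of the rest with the highest ppi2 intensity are given by lowest, median and highest value. The selection was tested on simulated data, which checks only that the rule was carried out and says nothing of these genes. Alternatives changed the normalization, the floor, the treatment of zeros, the WT samples, the averaging, and left out each pair. Precision is limited by the number of arrays and, for dim probes, by the floor, whose choice the SEs do not include.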

Additional observations from a re-analysis of the deposited data

Results flagged for a closer look

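Of 104 groups of 4 pairs (52 genes, 2 genotypes), 8 had a pair far from the other 3, where a rate of 1 in 20 would give 5.2. In 3 of them the other WT pairs were tied at the floor of -4.88, so that any value above it stands apart and that rate does not hold: AT1G72890 was at -4.61 in WT pair 2, AT2G37880 at -2.985 in WT pair 1 and AT1G62760 at -4.675 in WT pair 1, all as log2 levels. In ppi2 pair 4 (samples 7 and 8), AT4G22190 was at 0.0699, against 1.23 to 1.29 in the other ppi2 pairs. AT5G52530 was at -0.60 there, against 0.13 to 0.20, and AT4G20300 at 0.33, against 0.74 to 0.79. In WT pair 2 (samples 3 and 4), AILP1 (AT5G19140) was at -1.82, against -2.72 to -2.64 in the other WT pairs, and AT4G16410 at 1.07, against 0.15 to 0.25.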

How the results depend on the processing

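The number of named probes that met both conditions was 64 as reported, 116 in the values as deposited and 114 against WT samples 5 to 8 alone. With 1 pair left out it was 67 to 78, and under the other settings 53 to 78. The median log2 difference of the 52 genes was 2.23 as reported and 2.85 in the values as deposited, where the median of all probes was 0.29. It was 2.196 to 2.40 with 1 pair left out. Of the 52 genes, 24 missed a condition under at least 1 of the 18 settings, most often with WT samples 1 to 4 alone (11 genes), a floor at the 25th percentile (10) or cyclic loess (9). For the 18 genes given with their values by sample, 290 of 324 log2 differences under other settings were within 1 SD over pairs of the reported one and 34 moved further. That SD is wide for genes with a step in WT, such as AT4G18180 (WT SD 3.02), and narrow for AT1G72890 (WT SD 0.13). These counts therefore do not measure stability. The direction is fixed by the choice of genes where samples were left out or the floor was moved. With samples left out, the second condition could not fail either. Rescaling used the same values that chose the genes, so the direction there is no independent support either. The fold moved by more than 1.5 times for 25 of the 52 genes in the values as deposited, 17 and 11 with floors at the 25th and 1st percentile, 9 after cyclic loess, 4 with zeros set to missing, 15 against either WT set alone, and 3 to 5 with a WT pair left out. No paired analysis was possible because no result comes from a test, and the mean of differences within equal sample numbers is the difference already given. The floor limits what can be said of dim genes.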
